A study of Macaca mulatta with 24 samples.

Results

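Airway epithelial cultures exposed to wood smoke on 5 consecutive days were compared with cultures of the same animals exposed on 1 day. The comparison took the 8 smoke libraries at these times out of 24 in the series, and 13200 of 35432 genes, those with a normalized count of at least 10 in at least 4 of the 8. The cells came from the trachea and bronchi of 4 adult female rhesus macaques (Macaca mulatta), S1 to S4, aged 5463, 2930, 2238 and 1128 days and weighing 5.59, 7.17, 4.56 and 3.18 kg. They were grown on Transwell inserts at an air–liquid interface in equal parts of BEGM and DMEM with retinoic acid, and were exposed to diluted whole wood smoke for 6 hours a day for 5 days or for 1 day. Filtered air cultures of the same animals and the same 2 times served as the background of time without smoke. Each group held 1 library per animal, so each animal gave 1 pair of libraries in smoke and 1 in air, and age cannot be told apart from animal. Within smoke, the number of exposures cannot be told apart from the later sampling.

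At an air–liquid interface, basal cells differentiate into a layer of ciliated and secretory cells. Basal cells carry keratin 5 and the transcription factor p63, ciliated cells depend on FOXJ1, and secretory cells make mucins and antimicrobial proteins. Smoke from burning plant matter holds polycyclic aromatic compounds, which bind the aryl hydrocarbon receptor and induce cytochrome P450 enzymes, and oxidants, which activate the transcription factor NRF2. Epithelial cells also respond to a fresh insult within hours through immediate early genes, and to continued exposure through changes in growth, differentiation and metabolism.

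Normalized totals were 12.5 to 13.5 M at 5 days of smoke and 12.8 to 13.5 M at 1 day, and approximate depths were 13.2 to 16.0 M and 10.4 to 15.2 M reads. Mitochondrially encoded genes took 4.13 to 4.97% of the values at 5 days and 6.02 to 6.39% at 1 day, lower at 5 days in all 4 animals (exact sign flip test over animals, two-sided p = 0.125, the smallest that 4 pairs allow, adjusted p = 0.3125 over 5 library measures). The number of genes at 10 or more was also lower at 5 days in all 4 animals, at 12927 to 13139 against 13097 to 13244 (exact sign flip p = 0.125, adjusted p = 0.3125). The cultures carried KRT5, FOXJ1, MUC5B and PIGR, the polymeric immunoglobulin receptor of secretory cells, while the club cell secretoglobin SCGB1A1 was low, at 26.2, 8.31, 39.8 and 17.0 at 5 days of smoke, against 35.6, 6.27, 27.1 and 14.7 at 1 day (log2 change 0.17, adjusted p = 0.719). Of markers of other cells, the fibroblast genes DCN, LUM and PDGFRB, the B cell gene MS4A1 and the endothelial gene CDH5 were at 0 in all 8 smoke libraries, and the leukocyte gene PTPRC was at 0 in all but 1, at 1.69. The 8 fibroblast markers summed to 583 to 702 at 5 days and 596 to 724 at 1 day, and the 8 leukocyte markers to 2670 to 4099 and 2690 to 3610. The 6 endothelial markers summed to 7065 to 16360 and 1488 to 9153, and nearly all of that was KDR, described below. Of the 3 endothelial markers tested 2 rose, KDR and PECAM1, an adhesion molecule of endothelium and leukocytes (mean 93.4 at 5 days, 62.6 at 1 day, log2 change 0.70, adjusted p = 0.0354, lost without S1, without S3 and without S4 at up to 0.155).

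At an adjusted p under 0.05 (limma on log2 values with animal as a block, Benjamini-Hochberg over 13200 genes), 2341 genes (17.7%) differed between 5 days and 1 day of smoke: 1148 (8.7%) rose and 1193 (9.04%) fell. Most changes were small, with a median log2 change of 0.36 among genes that rose and -0.45 among genes that fell, and 149 of the 2341 changed at least 2-fold, 47 up and 102 down. The direction was shared by all 4 animals in 2276 of them (97.2%, against 39.6% of all genes tested), and the 4 values at 5 days did not overlap the 4 at 1 day in 810 (34.6%). Among all genes tested such values were found in 8.95%, with 4.49% higher and 4.45% lower at 5 days. The 2341 genes were called from these same within-animal changes, so shares above those of all genes largely follow from the call. Per-animal changes correlated across genes at 0.268 to 0.443 between animals (Pearson, 13200 genes, which are not independent). The call depended on the pairing by animal, since a fit without the block called 25 genes. With 1 animal left out, 967 genes were called without S3, 988 without S4, 1845 without S1 and 2249 without S2, so counts within lists also fall, and those of 5 or more that move by over 1.5 times are given with each list.

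Air cultures changed over the same interval, and mostly in the same direction. Of the 2341 genes called in smoke, 2108 (90.0%) had a mean change of the same sign in air, against 70.5% of all genes tested. Of the 2341, 1517 (64.8%) kept the smoke sign in all 4 air animals while 28 went the opposite way in all 4. The share over all genes tested was not computed for these counts in all 4. In air itself 0 of 13232 genes (0%) passed limma's test, and 2294 had an unadjusted p under 0.05. The air library of S1 at 5 days was unlike the rest, with a median correlation of 0.847 to all other libraries of the series, recovery included. Each other smoke or air library at both times had 0.931 or more. Without S1 the air comparison called 3102 of 12961 genes (23.9%), 1615 higher and 1487 lower. Then 2218 of the 2341 (94.7%) kept the sign of the smoke change, a share not computed over all genes tested. Smoke and air changes averaged over animals correlated at 0.566 across genes. The test of the difference between both changes called 5 of 13200 genes (0.0379%), and 103 (0.78%) with the 5-day S1 air library left out.

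**Figure D1:**
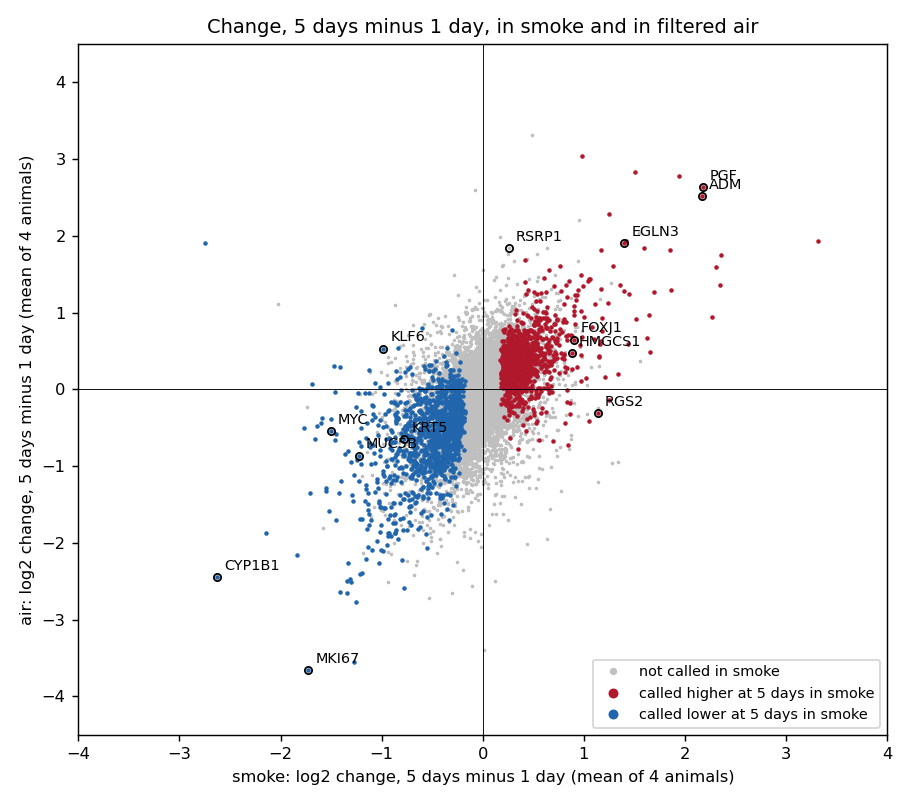
Each point is 1 of 13200 genes, with the mean log2 change of the 4 animals (5 days minus 1 day) in smoke on the x axis and in filtered air on the y axis. Red and blue points are the 1148 and 1193 genes called higher and lower in smoke. Most coloured points lie in the quadrants where smoke and air share a sign, PGF and ADM at the upper right and CYP1B1 and MKI67 at the lower left, while KLF6 and RGS2 lie where the signs differ.

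Values by animal are normalized counts in the order S1 to S4, and means are of 4 libraries. The 15 largest rises among genes averaging at least 50 normalized counts were those of PGF, ADM, IDO1, SLC5A8, RASL10B, ANKRD37, CAPN14, PTHLH, EGLN3, SPOCK2, CXCR2, KDR, MX1, PLB1 and ALOX15B, with log2 changes between 1.17 and 2.17. PGF, a growth factor that binds VEGF receptor 1, had 193, 699, 249.9 and 419 at 5 days of smoke, against 15.1, 375, 68.3 and 81.9 at 1 day. PGF had a log2 change of 2.17 ± 0.31 (SE, adjusted p = 0.00152). Every animal was higher at 5 days, but the groups overlapped, because S2 at 1 day already exceeded S1 and S3 at 5 days. KDR, known as a VEGF receptor of endothelium, had 6812, 16230.5, 9719 and 14238 at 5 days of smoke, against 1309.7, 9025, 6227 and 6644 at 1 day, and its log2 changes in air were 0.92, 1.02, 1.18 and 1.39 in S1 to S4. KDR had a log2 change of 1.24 ± 0.21 (SE, adjusted p = 0.00358). IDO1, which degrades tryptophan, had 789, 585, 164 and 96.0 at 5 days of smoke, against 207, 181, 35.5 and 48.0 at 1 day. IDO1 had a log2 change of 1.69 ± 0.17 (SE, adjusted p = 2.38e-04). SLC5A8, a sodium-coupled carrier of monocarboxylates, spanned a wide range between animals, with 4233, 930.1, 46.0 and 120.4 at 5 days of smoke, against 2301, 200.0, 11.0 and 40.2 at 1 day. SLC5A8 had a log2 change of 1.65 ± 0.18 (SE, adjusted p = 3.16e-04). S1 was the highest at both times, and all 4 animals rose. PTHLH, parathyroid hormone-like hormone, averaged 1269 ± 997 at 5 days and 432 ± 252 at 1 day (SD, n = 4 each), CXCR2, a chemokine receptor, 85.8 ± 24.3 at 5 days and 35.0 ± 13.1 at 1 day, and ALOX15B, a lipoxygenase, 287 ± 144 at 5 days and 127 ± 59.8 at 1 day. RASL10B (mean 349 at 5 days, 143 at 1 day), CAPN14 (mean 104 at 5 days, 43.0 at 1 day), SPOCK2 (mean 589 at 5 days, 295 at 1 day) and PLB1 (mean 102 at 5 days, 47.9 at 1 day) completed the group. In air the mean log2 change over the 4 animals was above 0 for all 15, between 0.49 (SLC5A8) and 2.83 (ANKRD37). The mean normalized count in air was nevertheless lower at 5 days for SLC5A8 (458 at 5 days of air, against 599 at 1 day) and CAPN14 (30.5 at 5 days of air, against 32.8 at 1 day), where S1 went the opposite way.

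The 15 largest falls were those of CYP1B1, MKI67, MYC, NR1D1, FOXM1, MUC5B, BIRC5, EGR1, ARHGEF10, ACP3, MXRA5, BNC1, KCNMA1, IGSF3 and KIF20A, with log2 changes between -2.63 and -1.13. They hold genes of the cell cycle, 2 immediate early factors, a xenobiotic enzyme, a clock gene and a mucin, which are described in turn below. BNC1, basonuclin, a zinc finger protein of proliferating basal keratinocytes, had 47.2, 26.9, 18.2 and 41.7 at 5 days of smoke, against 92.8, 68.5, 52.5 and 77.1 at 1 day, with no overlap between the groups. BNC1 had a log2 change of -1.16 ± 0.19 (SE, adjusted p = 0.00301). KCNMA1, the large-conductance calcium-activated potassium channel that helps keep the airway surface hydrated, had 65.9, 35.0, 46.4 and 83.9 at 5 days of smoke, against 123, 96.5, 108 and 171 at 1 day, also without overlap. KCNMA1 had a log2 change of -1.14 ± 0.15 (SE, adjusted p = 0.00109). ACP3, an acid phosphatase (mean 170.2 at 5 days, 383 at 1 day), MXRA5, a matrix-remodelling protein (mean 870.2 at 5 days, 1946 at 1 day), and ARHGEF10, a guanine nucleotide exchange factor (mean 93.6 at 5 days, 219 at 1 day), did not overlap between groups either, while IGSF3 did (mean 53.7 at 5 days, 109 at 1 day). All 15 were lower on average in air too, by log2 changes of -3.66 (MKI67) to -0.54 (MYC).

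**Figure D2:**
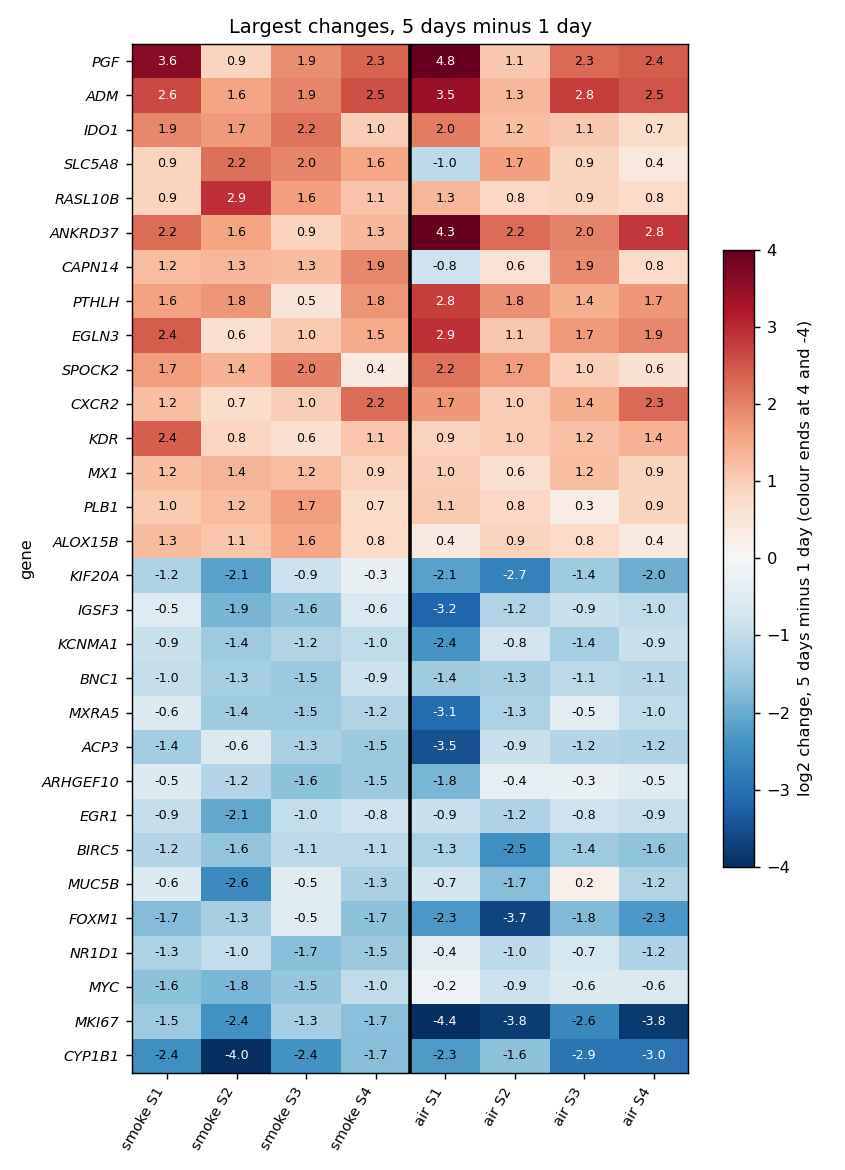
Rows are the 15 genes with the largest rise and the 15 with the largest fall in smoke, columns the 4 animals in smoke (left of the line) and in filtered air (right), and each cell gives the log2 change, 5 days minus 1 day. Every smoke cell has the sign of its gene's change, and in air S1 has changes of opposite sign for SLC5A8 and CAPN14 and S3 for MUC5B.

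The xenobiotic enzyme CYP1B1 showed the largest fall. It had 303, 148, 311 and 334 at 5 days of smoke, against 1649, 2335, 1643 and 1081 at 1 day, and 35.5, 65.1, 31.0 and 38.7 at 5 days of air, against 173, 206, 244 and 308 at 1 day. CYP1B1 had a log2 change of -2.63 ± 0.26 (SE, adjusted p = 2.17e-04). The values were lower at 5 days in both exposures, and the difference between both changes did not pass the test (-0.18, adjusted p = 0.88). At each time the level in smoke lay above that in air in every animal. CYP1A1, the other classical target of the aryl hydrocarbon receptor, was below the filter, with 7.86, 2.99, 2.87 and 3.15 at 5 days against 60.6, 3.21, 11.8 and 2.23 at 1 day, so only S1 and S3 had more than a few counts at 1 day. Its change was not tested across genes, and 3 of 4 animals were lower at 5 days (exact sign flip test, two-sided p = 0.375, smallest possible 0.125). ARNT, the dimerization partner of the receptor, fell in all 4 animals (log2 change -0.39, adjusted p = 0.00462). Among the 7 tested members of this list, 0 rose and 2 fell (28.6%, against 17.7% of all genes tested), with a median of -0.21. ALDH3A1, an aldehyde dehydrogenase, had mean 55855 at 5 days, 48098 at 1 day (log2 change 0.24, adjusted p = 0.132). NFE2L2, the gene of NRF2, had values that did not overlap and were lower at 5 days (mean 4415 at 5 days, 4969 at 1 day), but it did not pass (log2 change -0.17, adjusted p = 0.0592).

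Of 23 tested NRF2 targets, 1 rose and 6 fell (30.4%, against 17.7% of all genes tested). Their median log2 change was -0.17, against 0.01 over all genes tested. SRXN1, which repairs oxidized peroxiredoxins, had 1660.0, 1905, 1589.8 and 1947 at 5 days of smoke, against 2164, 3088, 2314 and 2402 at 1 day, with no overlap. SRXN1 had a log2 change of -0.48 ± 0.07 (SE, adjusted p = 0.00166). OSGIN1, an oxidative stress growth inhibitor (mean 259 at 5 days, 399 at 1 day, log2 change -0.62, adjusted p = 0.00586), and ABCC1, an exporter of glutathione conjugates (mean 973 at 5 days, 1431 at 1 day, log2 change -0.57, adjusted p = 0.00363), fell as well, and without S2 10 members fell. PRDX1, a peroxiredoxin, was the member that rose (mean 11542 at 5 days, 9123 at 1 day, log2 change 0.33, adjusted p = 0.00784). HMOX1, heme oxygenase, had 74.2, 40.0, 82.3 and 73.9 at 5 days of smoke, against 52.0, 229.8, 143 and 73.8 at 1 day (log2 change -0.69, adjusted p = 0.216). S2 and S3 were lower at 5 days, S4 had the same level and S1 was higher, and HMOX1 did not pass. Of 9 tested entries of metallothionein and zinc genes 1 rose and 3 fell (44.4%, against 17.7% of all genes tested). The falls were those of MT1E, which buffers metals (mean 728 at 5 days, 1112 at 1 day, log2 change -0.60, adjusted p = 0.00102), and of 2 entries of the zinc carrier SLC30A1. These 2 entries of 1 gene had log2 changes of -1.10 and -0.39 (adjusted p = 0.0225 and 0.0327). Only 1 entry of the list fell without S2 and 1 without S4. The zinc carrier SLC30A2 rose (mean 963 at 5 days, 657 at 1 day, log2 change 0.60, adjusted p = 0.0012). In the heat shock list 3 of 16 rose and 2 fell (31.2%, against 17.7% of all genes tested). HSPB1, a small heat shock protein, had 595, 1168, 808 and 892 at 5 days of smoke, against 1182, 1686, 1550.3 and 1369 at 1 day, without overlap. HSPB1 had a log2 change of -0.77 ± 0.08 (SE, adjusted p = 3.20e-04). The cochaperone CHORDC1 (mean 385 at 5 days, 246 at 1 day, log2 change 0.65, adjusted p = 0.00132), the HSP40 DNAJA1 (mean 2209 at 5 days, 1759.6 at 1 day, log2 change 0.31, adjusted p = 0.00661) and the HSP110 HSPH1 (mean 2264 at 5 days, 1891 at 1 day, log2 change 0.27, adjusted p = 0.0159) rose, and the call of HSPH1 was lost without S3 (adjusted p = 0.0717).

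Immediate early genes were mostly lower at 5 days of smoke. Of 24 tested members 13 fell and 1 rose in smoke (58.3%, against 17.7% of all genes tested). Medians were -0.63, -0.56, -0.60 and -0.34 in S1 to S4, and the list median was -0.59 in smoke and -0.02 (-0.14 without S1) in air. KLF6, a zinc finger factor induced by injury, had 952, 1182, 696 and 678 at 5 days of smoke, against 1909.6, 2306, 1358 and 1372 at 1 day. KLF6 had a log2 change of -0.99 ± 0.06 (SE, adjusted p = 1.29e-05). In air it had 931, 1309.9, 641 and 732 at 5 days of air, against 594, 776, 555 and 509.6 at 1 day, so it was lower at 5 days in all 4 animals in smoke and higher in all 4 in air, and the difference passed (difference in log2 change -1.52 ± 0.13 (SE), adjusted p = 5.97e-04; adjusted p = 0.118 without S2 and 0.154 without S4). MYC, a driver of growth, had 148, 80.3, 76.0 and 86.5 at 5 days of smoke, against 468, 285, 223 and 175 at 1 day, with S1 the highest at both times. MYC had a log2 change of -1.50 ± 0.14 (SE, adjusted p = 1.62e-04). Its air change was smaller, -0.17, -0.85, -0.57 and -0.58 in S1 to S4, but the difference did not pass (-0.96, adjusted p = 0.296) unless the 5-day S1 air library was left out (adjusted p = 0.0361). EGR1, an early growth response factor, fell to 812, 329, 748 and 779.8 at 5 days of smoke, against 1563, 1367, 1495 and 1398 at 1 day, and S2 was the lowest at 5 days. EGR1 had a log2 change of -1.21 ± 0.16 (SE, adjusted p = 9.27e-04). RHOB, a stress-induced GTPase, had 761, 1942, 1021 and 940.2 at 5 days of smoke, against 1507, 3029.8, 1891 and 1601 at 1 day, while air values were 918, 1680.4, 809 and 947 at 5 days of air, against 519.8, 1607, 909 and 1003 at 1 day (difference -0.98, adjusted p = 0.273, and 0.0116 with the 5-day S1 air library left out). RHOB had a log2 change of -0.82 ± 0.07 (SE, adjusted p = 8.32e-05). KLF4, a barrier and differentiation factor, also fell (mean 689.5 at 5 days, 1208 at 1 day, log2 change -0.86, adjusted p = 2.17e-04). FOS, chosen after its values were seen because it was the 1 member that rose, had 490.1, 506, 337 and 534 at 5 days of smoke, against 343, 394, 291 and 238 at 1 day. FOS had a log2 change of 0.56 ± 0.13 (SE, adjusted p = 0.0171). Its call was lost without S4 (adjusted p = 0.0683).

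Of 23 TGF-beta and BMP pathway genes 10 fell and 0 rose (43.5%, against 17.7% of all genes tested), and 5 fell without S3 and 5 without S4. The list median was -0.56, against -0.32 (-0.25 without S1) in air. ID1 and ID3, inhibitors of differentiation that BMP signalling induces, had 655, 1297, 789.7 and 1001 at 5 days of smoke, against 975, 2605, 1279 and 1512 at 1 day for ID1, and 256, 596, 362 and 508 at 5 days of smoke, against 584, 1149, 724 and 843 at 1 day for ID3. ID1 had a log2 change of -0.72 ± 0.08 (SE, adjusted p = 3.16e-04). ID3 had a log2 change of -0.96 ± 0.08 (SE, adjusted p = 1.02e-04). In air ID1 had a mean log2 change of 0.29, with 3 of 4 animals higher, and the difference did not pass (-1.01, adjusted p = 0.352). With S1 left out the air change of ID1 was 0.04. With only the 5-day S1 air library left out the difference was -0.77 and passed (adjusted p = 0.00607). ID4 (mean 140.2 at 5 days, 261 at 1 day, log2 change -0.91, adjusted p = 0.00121) and the receptor TGFBR1 (mean 329 at 5 days, 502 at 1 day, log2 change -0.62, adjusted p = 0.00116) fell too. Among 19 EGF receptor ligand and feedback genes, 3 rose and 4 fell (36.8%, against 17.7% of all genes tested). The receptor itself, EGFR, had 1194, 1010.4, 848 and 999 at 5 days of smoke, against 1689.8, 1801, 1753 and 1834 at 1 day, and SPRED2, an inhibitor of the downstream kinases, 453 ± 71.6 at 5 days and 668 ± 57.1 at 1 day (log2 change -0.57, adjusted p = 0.0017). EGFR had a log2 change of -0.81 ± 0.08 (SE, adjusted p = 2.38e-04). The feedback phosphatase DUSP4 (mean 3316 at 5 days, 2429 at 1 day, log2 change 0.44, adjusted p = 0.00241) and the receptor inhibitor ERRFI1 (mean 451 at 5 days, 321 at 1 day, log2 change 0.48, adjusted p = 0.00554) rose. Of 14 Wnt genes 0 rose and 2 fell, WNT4 (mean 119.8 at 5 days, 190.4 at 1 day, log2 change -0.67, adjusted p = 0.00394) and the secreted inhibitor WIF1 (mean 34.2 at 5 days, 53.8 at 1 day, log2 change -0.67, adjusted p = 0.0491), whose call was lost with each animal left out (adjusted p up to 0.185). The 14.3% of Wnt genes called was below the 17.7% of all genes tested.

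Proliferation genes were lower at 5 days. Of 25 tested mitosis genes 12 fell and 0 rose (48%, against 17.7% of all genes tested), with a median of -0.71 in smoke and -1.69 (-1.58 without S1) in air. MKI67, the Ki-67 proliferation antigen, had 410.4, 59.8, 167 and 179 at 5 days of smoke, against 1135, 324, 424 and 573 at 1 day. MKI67 had a log2 change of -1.72 ± 0.15 (SE, adjusted p = 1.07e-04). In air it had 59.7, 31.5, 95.0 and 56.5 at 5 days of air, against 1317, 449.9, 569.6 and 820.1 at 1 day, where every animal dropped by a larger factor. The difference between both changes was 1.94, adjusted p = 0.296, and 0.0129 with the 5-day S1 air library left out. BIRC5, which guides chromosome segregation, had 74.2, 20.0, 53.6 and 55.9 at 5 days of smoke, against 167, 61.0, 113 and 119.6 at 1 day, and the cyclin CCNA2 had 62.0, 16.0, 55.5 and 63.0 at 5 days of smoke, against 202, 46.0, 99.0 and 91.6 at 1 day, with S2 low at both times. BIRC5 had a log2 change of -1.22 ± 0.16 (SE, adjusted p = 9.27e-04). CCNA2 had a log2 change of -1.13 ± 0.21 (SE, adjusted p = 0.00554). The kinetochore protein CENPF (mean 179.6 at 5 days, 345 at 1 day, log2 change -1.04, adjusted p = 0.00414), the mitotic kinesin KIF20A (mean 91.3 at 5 days, 179 at 1 day, log2 change -1.13, adjusted p = 0.00957) and FOXM1, the transcription factor of the mitotic programme (mean 45.7 at 5 days, 119.8 at 1 day, log2 change -1.31, adjusted p = 0.00271), fell in all 4 animals. Of 25 DNA replication genes 5 fell and 0 rose (median -0.28, against -0.81 (-0.68 without S1) in air, with 3 falling without S1, 3 without S3 and 1 without S4), among them the helicase subunits MCM5 (mean 102 at 5 days, 182 at 1 day, log2 change -0.93, adjusted p = 0.00857) and MCM4 (mean 317 at 5 days, 414 at 1 day, log2 change -0.38, adjusted p = 0.01, lost without S4 at an adjusted p of 0.0633). The 20% of replication genes called, all lower, stood against 17.7% of all genes tested in either direction and 9.04% lower. NCAPG, a condensin subunit, did not pass in smoke (mean 54.6 at 5 days, 84.4 at 1 day, log2 change -0.51, adjusted p = 0.0664), and its air change was -1.92. In bulk RNA, fewer cells of a kind and less RNA per cell cannot be told apart.

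**Figure D3:**
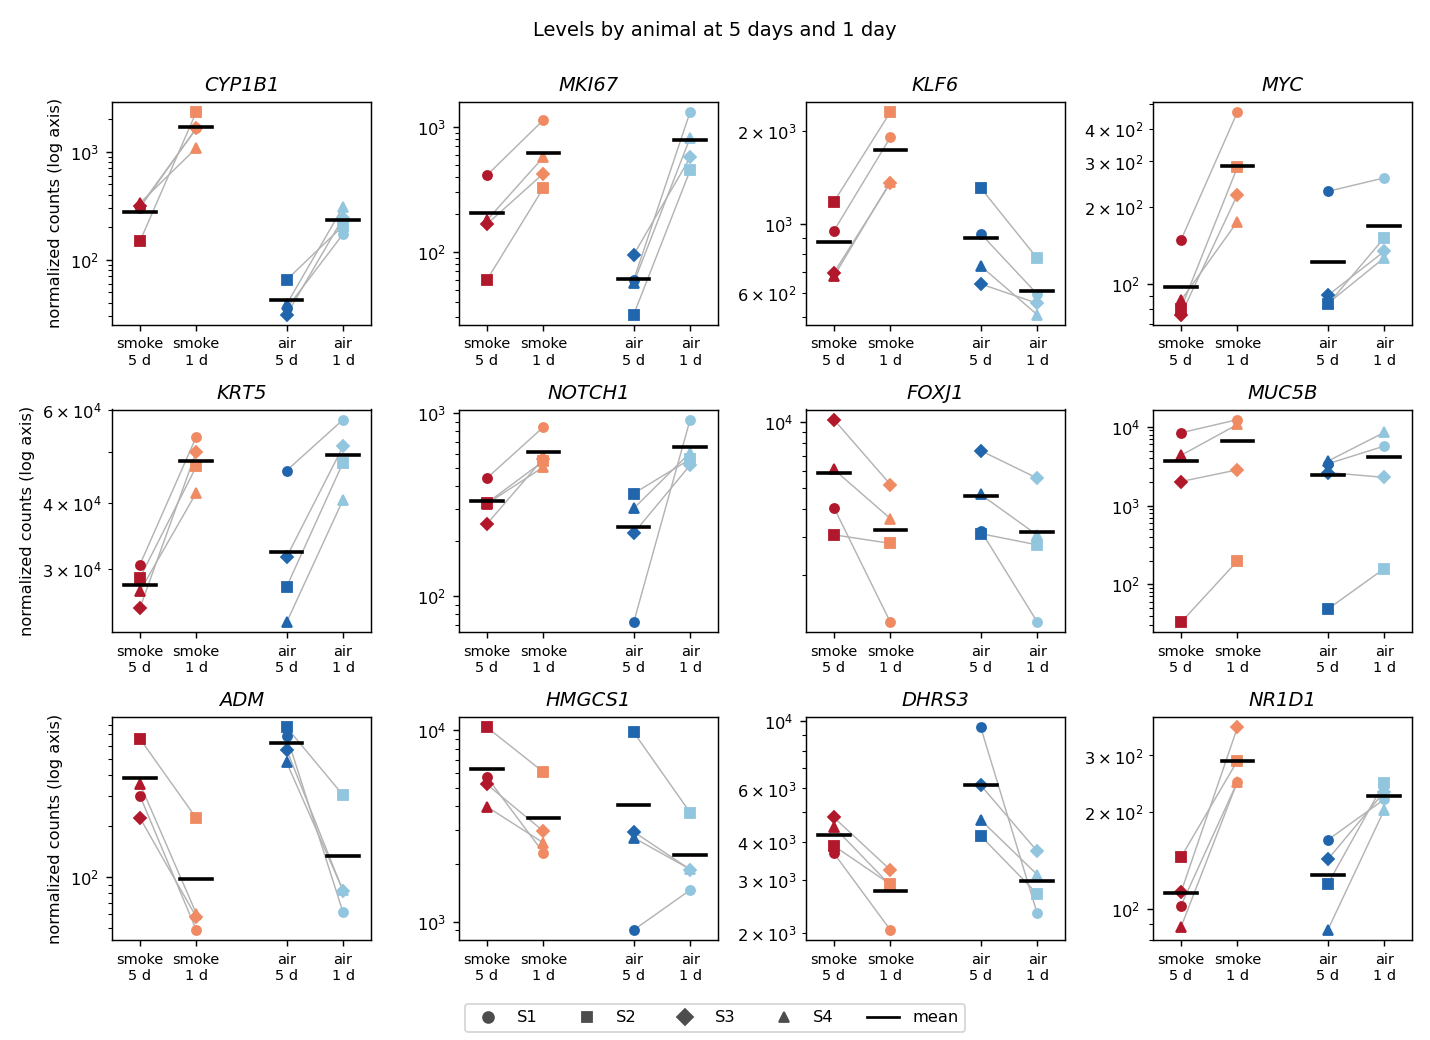
Normalized counts (log axis) of 12 genes by animal at 5 days and at 1 day of smoke (left) and of air (right), with thin lines joining the libraries of 1 animal and bars at the means of 4. CYP1B1, MYC and NR1D1 do not overlap between 5 days and 1 day of smoke, KLF6 is lower at 5 days in smoke and higher at 5 days in air, and MUC5B in S2 lies far below the other animals in every group.

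Basal cell genes were lower at 5 days. Of 14 tested, 9 fell and 0 rose (64.3%, against 17.7% of all genes tested). All 14 had a log2 change below 0, with a median of -0.38, against -0.24 (-0.38 without S1) in air. KRT5 had 30522, 28815, 25245 and 27199 at 5 days of smoke, against 53429, 46922, 50068 and 41833 at 1 day. KRT5 had a log2 change of -0.78 ± 0.08 (SE, adjusted p = 1.90e-04). TP63, which encodes p63, had 512, 549, 381 and 389 at 5 days of smoke, against 783, 486, 573 and 591 at 1 day, where S2 was higher at 5 days. TP63 had a log2 change of -0.41 ± 0.12 (SE, adjusted p = 0.0445). The call of TP63 was lost without S1, without S3 and without S4 (adjusted p up to 0.171). The integrins of the hemidesmosome, ITGB4 (mean 4086 at 5 days, 7074 at 1 day, log2 change -0.79, adjusted p = 2.17e-04) and ITGA6 (mean 1039 at 5 days, 1616 at 1 day, log2 change -0.61, adjusted p = 8.45e-04), and their cytolinker DST (mean 2192 at 5 days, 3190.2 at 1 day, log2 change -0.56, adjusted p = 0.00152) fell in all 4 animals. KRT5, ITGB4 and DST did not overlap between the groups, and of all genes tested 4.45% did not overlap and were lower.

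Of 21 desmosome and tight junction genes 2 rose and 7 fell (42.9%, against 17.7% of all genes tested). The desmosomal cadherin DSC3 had 152, 276, 146 and 202 at 5 days of smoke, against 326, 449, 397 and 373 at 1 day, with no overlap, and DSC2 (mean 281 at 5 days, 421 at 1 day, log2 change -0.73, adjusted p = 0.00549), DSG3 (mean 139 at 5 days, 244 at 1 day, log2 change -0.90, adjusted p = 0.00625), plakophilin PKP1 (mean 971 at 5 days, 1356 at 1 day, log2 change -0.48, adjusted p = 7.76e-04) and desmoplakin DSP (mean 6849 at 5 days, 9266 at 1 day, log2 change -0.45, adjusted p = 0.00118) fell. DSC3 had a log2 change of -1.03 ± 0.12 (SE, adjusted p = 4.76e-04). DSC3, DSC2 and DSG3 are also the 3 that fell (33.3%), with 0 risen, among 9 squamous genes. In the Notch pathway 6 of 14 fell and 0 rose (42.9%, against 17.7% of all genes tested). The Notch median was -0.34, against -0.33 (-0.27 without S1) in air. NOTCH1, a receptor that directs secretory fate, had 442, 323, 248 and 320.0 at 5 days of smoke, against 839.9, 547, 564 and 508 at 1 day, and its ligand JAG1 had 189, 216, 129 and 177 at 5 days of smoke, against 251, 348, 228 and 257 at 1 day. NOTCH1 had a log2 change of -0.88 ± 0.09 (SE, adjusted p = 2.97e-04). JAG1 had a log2 change of -0.61 ± 0.11 (SE, adjusted p = 0.00384). NOTCH2 (mean 2333 at 5 days, 3071 at 1 day, log2 change -0.41, adjusted p = 0.00475) and NOTCH3 (mean 862 at 5 days, 1252 at 1 day, log2 change -0.52, adjusted p = 0.00599) fell too. Of 25 matrix genes 1 rose and 5 fell (3 without S2, 2 without S3 and 2 without S4), 24% of the list against 17.7% of all genes tested. The collagen COL5A1 had 209.6, 129, 143 and 232 at 5 days of smoke, against 279.5, 362, 309.8 and 434 at 1 day, with no overlap. COL5A1 had a log2 change of -0.98 ± 0.15 (SE, adjusted p = 0.00195). Fibronectin, FN1, had 680.1, 430.0, 771 and 4611 at 5 days of smoke, against 1017, 1125, 1463 and 5542 at 1 day, with S4 far above the others at both times. FN1 had a log2 change of -0.79 ± 0.14 (SE, adjusted p = 0.00416).

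A few genes of ciliated cells rose. FOXJ1, the master factor of motile cilia, had 4072, 3058, 10285 and 6086 at 5 days of smoke, against 1217, 2794, 5195 and 3627 at 1 day, higher in all 4 animals but by little in S2. FOXJ1 had a log2 change of 0.90 ± 0.18 (SE, adjusted p = 0.00819). MYB, which acts early in multiciliated cells, rose (mean 342 at 5 days, 219 at 1 day, log2 change 0.62, adjusted p = 0.00388). CCNO, required to multiply centrioles, had 416, 82.9, 553 and 411 at 5 days of smoke, against 89.1, 102, 199 and 175 at 1 day, lower at 5 days in S2, and its call was lost without S1, without S3 and without S4 (adjusted p up to 0.0932). CCNO had a log2 change of 1.15 ± 0.29 (SE, adjusted p = 0.0217). In all, 3 of 18 multiciliogenesis regulators (16.7%) rose and 0 fell. That share was close to the 17.7% of all genes that changed in either direction and above the 8.7% that rose, and 7 rose without S2. The list had medians of 0.69, -0.14, 0.52 and 0.24 in S1 to S4, and an overall median of 0.24 in smoke and -0.35 (-0.17 without S1) in air. PLK4, the kinase that starts centriole duplication, did not pass (mean 358 at 5 days, 174 at 1 day, log2 change 0.73, adjusted p = 0.0901). Of 22 motile cilium genes 5 (22.7%) rose and 0 fell, and 2, 10, 1 and 2 rose with S1, S2, S3 and S4 left out in turn, while 3 fell without S1. TPPP3, a tubulin binding protein, had 809, 2293, 5125 and 2839.6 at 5 days of smoke, against 515, 2022, 2932 and 1997 at 1 day, and CCDC39 (mean 395 at 5 days, 288 at 1 day, log2 change 0.45, adjusted p = 0.0159), PIFO (mean 1332 at 5 days, 1031 at 1 day, log2 change 0.36, adjusted p = 0.0217) and TEKT1 (mean 1800.3 at 5 days, 1376 at 1 day, log2 change 0.41, adjusted p = 0.0335) rose. TPPP3 had a log2 change of 0.54 ± 0.09 (SE, adjusted p = 0.00296). The calls of CCDC39, PIFO and TEKT1 did not hold with some animals left out (adjusted p up to 0.0966, 0.111 and 0.137), in each case without S1 and without S3.

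Secretory genes split. MUC5B, a gel-forming mucin, had 8413, 32.9, 2021 and 4346 at 5 days of smoke, against 12361, 198, 2849 and 10729 at 1 day. MUC5B had a log2 change of -1.23 ± 0.26 (SE, adjusted p = 0.0097). S2 was far below the other 3 animals at both times and had the largest fall. The IRE1 paralogue ERN2, found in mucous cells, fell (mean 279 at 5 days, 408 at 1 day, log2 change -0.50, adjusted p = 0.00712, lost without S4 at 0.0562), as did CLCA1, a secreted goblet cell protein (mean 4167 at 5 days, 5143 at 1 day, log2 change -0.37, adjusted p = 0.0144, lost without S3 and without S4 at up to 0.0836). AGR2, the disulfide isomerase that folds mucins, rose, with 16739.9, 20799, 15216 and 23632 at 5 days of smoke, against 11543, 11905, 10759 and 16256 at 1 day. AGR2 had a log2 change of 0.60 ± 0.07 (SE, adjusted p = 3.62e-04). Over the goblet list 4 of 11 rose and 4 fell (72.7%, against 17.7% of all genes tested). With S1, S2, S3 and S4 left out in turn 2, 2, 1 and 3 rose and 4, 4, 2 and 1 fell. MUC5AC had no match in the table. Of 13 club and secretory genes 4 rose and 1 fell (38.5%, against 17.7% of all genes tested), and 1 rose and 0 fell without S4. The protease inhibitor SLPI had 2540.0, 741, 1651 and 729 at 5 days of smoke, against 1562, 590.0, 1014 and 605 at 1 day, ceruloplasmin, CP, rose (mean 25449 at 5 days, 21011 at 1 day, log2 change 0.28, adjusted p = 0.0179), and PIGR rose (mean 16392 at 5 days, 14095 at 1 day, log2 change 0.23, adjusted p = 0.0215), both lost without S4 (adjusted p of 0.0932 and 0.138). SLPI had a log2 change of 0.50 ± 0.09 (SE, adjusted p = 0.00362). TFF3, a trefoil peptide, fell (mean 70.1 at 5 days, 114 at 1 day, log2 change -0.91, adjusted p = 0.0077, lost without S4 at 0.0504). Of 16 ion and water transport genes 2 rose and 5 fell (43.8%, against 17.7% of all genes tested). Without S1 3 of them fell, and 2 without S3 and 2 without S4. The proton pump ATP12A had 31868, 1425, 3096 and 2707 at 5 days of smoke, against 24279.7, 782, 1831 and 1814 at 1 day, with S1 far above the rest. ATP12A had a log2 change of 0.65 ± 0.07 (SE, adjusted p = 4.54e-04). The sodium channel subunits SCNN1B (mean 608 at 5 days, 904 at 1 day, log2 change -0.63, adjusted p = 0.00677) and SCNN1G (mean 43.8 at 5 days, 78.2 at 1 day, log2 change -1.02, adjusted p = 0.0119) and the chloride loading carrier SLC12A2 (mean 1096 at 5 days, 1435 at 1 day, log2 change -0.37, adjusted p = 0.00991) fell, calls lost for SCNN1G without S3 (adjusted p = 0.0589) and for SLC12A2 without S4 (adjusted p = 0.0624).

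Genes that low oxygen induces rose in part. Of 19 tested 8 rose and 1 fell (47.4%, against 17.7% of all genes tested), with a median of 0.31 in smoke and 0.69 (0.76 without S1) in air. Adrenomedullin, ADM, a peptide hormone, had 304, 661, 224 and 358 at 5 days of smoke, against 48.3, 223, 57.6 and 60.5 at 1 day, and the groups did not overlap, although S2 at 1 day lay well above the other 3 animals. ADM had a log2 change of 2.17 ± 0.17 (SE, adjusted p = 6.94e-05). In air ADM had 688, 772, 569 and 478 at 5 days of air, against 61.4, 305, 82.2 and 83.0 at 1 day. EGLN3, an oxygen-sensing prolyl hydroxylase, had 8064, 17561, 7549.8 and 10064 at 5 days of smoke, against 1489, 11226, 3677 and 3611 at 1 day, and ANKRD37, a known HIF target, averaged 241 ± 161 at 5 days and 93.5 ± 61.9 at 1 day (SD, n = 4 each, log2 change 1.50, adjusted p = 7.48e-04). EGLN3 had a log2 change of 1.40 ± 0.21 (SE, adjusted p = 0.00179). The histone demethylase KDM3A rose as well (mean 995 at 5 days, 718 at 1 day, log2 change 0.47, adjusted p = 0.00189). Of 17 glycolysis genes 5 rose and 0 fell (29.4%, against 17.7% of all genes tested), and 2 rose without S1 and 1 without S4. The list median was 0.14, against 0.59 (0.38 without S1) in air. Hexokinase 2, HK2, had 1528, 3251, 3016 and 1641 at 5 days of smoke, against 565, 2545, 2018 and 902 at 1 day, and PFKFB4, which sets the level of a glycolytic activator, rose (mean 659 at 5 days, 429 at 1 day, log2 change 0.78, adjusted p = 0.0161, lost without S4 at 0.066). HK2 had a log2 change of 0.81 ± 0.13 (SE, adjusted p = 0.0031). LDHA (mean 15163 at 5 days, 12269.6 at 1 day, log2 change 0.29, adjusted p = 0.0223) and TPI1 (mean 7562 at 5 days, 6538 at 1 day, log2 change 0.21, adjusted p = 0.0319) rose slightly, and both calls were lost without S1 and without S4 (adjusted p up to 0.136 and 0.171). The glucose carrier SLC2A3 had 75.0, 381, 134 and 225 at 5 days of smoke, against 63.2, 239, 123 and 146 at 1 day and lost its call without any 1 of the animals (adjusted p up to 0.212), while in air its log2 changes were 1.37, 1.89, 1.71 and 1.76 (difference -1.27, adjusted p = 0.117, and 0.00355 with the 5-day S1 air library left out). SLC2A3 had a log2 change of 0.42 ± 0.13 (SE, adjusted p = 0.0499).

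Most sterol synthesis genes rose. Of 19 tested 15 rose and 1 fell, against 8.7% and 9.04% of all genes tested, with medians of 0.84, 0.42, 0.41 and 0.47 in S1 to S4 and a list median of 0.54 in smoke and 0.47 (0.57 without S1) in air. HMGCS1, an early enzyme of the mevalonate route, had 5684, 10355, 5215 and 3986 at 5 days of smoke, against 2296, 6051, 2972 and 2581 at 1 day. HMGCS1 had a log2 change of 0.88 ± 0.09 (SE, adjusted p = 2.91e-04). INSIG1, which restrains sterol synthesis when sterols are plentiful, had 2776, 4448, 2845 and 1914 at 5 days of smoke, against 1396, 2215, 1569.8 and 1384 at 1 day. INSIG1 had a log2 change of 0.83 ± 0.08 (SE, adjusted p = 2.44e-04). HSD17B7, a later enzyme, rose too (mean 846 at 5 days, 516 at 1 day, log2 change 0.70, adjusted p = 4.75e-04). SREBF2, the transcription factor of the pathway, was the 1 member that fell (mean 7465 at 5 days, 9248 at 1 day, log2 change -0.31, adjusted p = 0.00997, lost without S3 at 0.0619), a gene named after its values were seen. In fatty acid synthesis 1 of 11 rose and 1 fell, the desaturase SCD (mean 7780.3 at 5 days, 5419 at 1 day, log2 change 0.49, adjusted p = 0.00672) and the carboxylase ACACA (mean 873 at 5 days, 1081 at 1 day, log2 change -0.35, adjusted p = 0.0355, lost without S3 and without S4 at up to 0.168). The 18.2% of fatty acid genes called was near the 17.7% of all genes tested. Of 16 endoplasmic reticulum chaperones 5 rose and 0 fell (31.2%, against 17.7% of all genes tested), and 3 rose without S1 and 3 without S3. MANF, a secreted stress protein of that compartment, had 1173, 1004, 873 and 906 at 5 days of smoke, against 610.0, 580.2, 582 and 588 at 1 day, without overlap, and HYOU1 (mean 3082 at 5 days, 2313 at 1 day, log2 change 0.40, adjusted p = 0.00757) and CRELD1 (mean 539 at 5 days, 401 at 1 day, log2 change 0.41, adjusted p = 0.0064) rose. MANF had a log2 change of 0.73 ± 0.08 (SE, adjusted p = 2.68e-04). In the amino acid stress list 2 of 17 rose and 4 fell (35.3%, against 17.7% of all genes tested). DDIT4, an mTOR inhibitor, rose (mean 4416 at 5 days, 2962 at 1 day, log2 change 0.58, adjusted p = 2.38e-04). The amino acid carriers SLC7A5 (mean 327 at 5 days, 512 at 1 day, log2 change -0.67, adjusted p = 0.0064) and SLC7A11 (mean 32.2 at 5 days, 68.5 at 1 day, adjusted p = 0.0113, lost without S4 at 0.0701) fell.

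**Figure D4:**
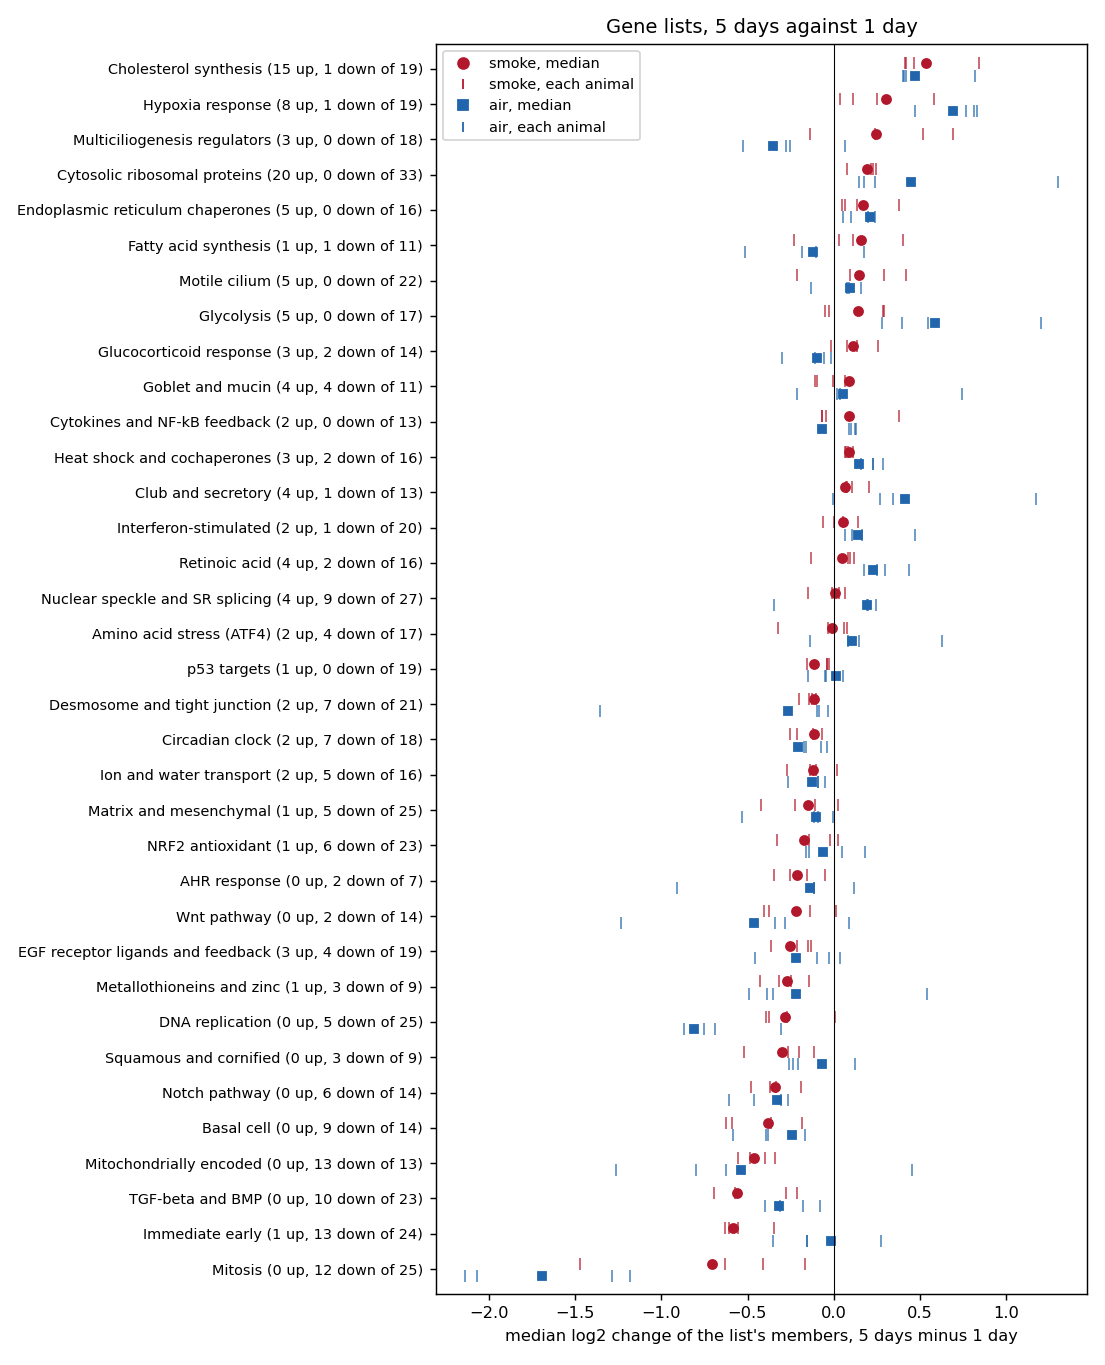
Each row is 1 of the gene lists with 5 or more tested members, markers of other cell types not drawn, with the number of its tested members that rose and fell in smoke, and the x axis gives the median log2 change of its members, 5 days minus 1 day, in smoke (red, upper) and in filtered air (blue, lower), with ticks for the 4 animals. Among the lists drawn, cholesterol synthesis has the highest smoke median, 0.54, and mitosis the lowest, -0.71, where the air median is lower still.

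Retinoic acid was part of the medium, and genes that bind, make or clear it changed in part. Of 16 tested 4 rose and 2 fell (37.5%, against 17.7% of all genes tested). DHRS3, which turns retinal back into retinol, had 3664, 3876, 4811 and 4473 at 5 days of smoke, against 2043, 2892, 3227 and 2870.0 at 1 day. DHRS3 had a log2 change of 0.62 ± 0.07 (SE, adjusted p = 3.55e-04). The values of DHRS3 did not overlap between the groups. CYP26B1, which degrades retinoic acid, was low but non-overlapping, with 47.2, 30.9, 41.2 and 71.6 at 5 days of smoke, against 6.18, 6.42, 6.77 and 17.9 at 1 day, and its fitted change depends on the pseudocount at such levels. CYP26B1 had a log2 change of 2.31 ± 0.27 (SE, adjusted p = 4.36e-04). DHRS9 rose (mean 8138 at 5 days, 5651 at 1 day, log2 change 0.49, adjusted p = 9.27e-04). CYP26A1, the related enzyme, had 1044, 985, 827 and 745 at 5 days of smoke, against 617, 1306, 678 and 489.6 at 1 day, lower at 5 days in S2 alone. CYP26A1 had a log2 change of 0.31 ± 0.15 (SE, adjusted p = 0.169). In air CYP26A1 had 2227, 1994, 2091 and 1255 at 5 days of air, against 535, 1007, 597 and 350.1 at 1 day, higher in all 4 animals (difference -1.36, adjusted p = 0.273, and 0.019 with the 5-day S1 air library left out).

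Clock genes fell more often than they rose, 7 against 2 of 18 tested (3 against 1 without S4). That was 50% of the list, against 17.7% of all genes tested. NR1D1, the repressor REV-ERB alpha, had 102, 145, 113 and 87.7 at 5 days of smoke, against 248, 289, 367 and 249 at 1 day, and NR1D2, its paralogue, had 189, 310.0, 202 and 183 at 5 days of smoke, against 402, 377, 368 and 344 at 1 day. NR1D1 had a log2 change of -1.36 ± 0.13 (SE, adjusted p = 1.77e-04). NR1D2 had a log2 change of -0.78 ± 0.13 (SE, adjusted p = 0.00255). TEF, a clock output factor, fell (mean 301 at 5 days, 459 at 1 day, log2 change -0.59, adjusted p = 0.00212), and ARNTL, the activator that NR1D1 represses, rose (mean 493 at 5 days, 385 at 1 day, log2 change 0.36, adjusted p = 0.0101), a call lost without S3 and without S4 (adjusted p up to 0.0542). The labels used here give no hour of harvest, so its part was not tested. Of 20 interferon-stimulated genes 2 rose and 1 fell (15%, against 17.7% of all genes tested). MX1, an antiviral GTPase, had 632, 339, 93.0 and 489 at 5 days of smoke, against 271, 131, 38.9 and 259 at 1 day, MX2 rose (mean 340.2 at 5 days, 219.8 at 1 day, log2 change 0.62, adjusted p = 0.00267) and OAS3, which makes oligoadenylate, fell (mean 309 at 5 days, 450.0 at 1 day, log2 change -0.55, adjusted p = 0.00223). MX1 had a log2 change of 1.18 ± 0.11 (SE, adjusted p = 1.36e-04). Of 13 cytokine and NF-kB feedback genes 2 rose and 0 fell, TNFAIP3 (mean 268 at 5 days, 167 at 1 day, log2 change 0.59, adjusted p = 0.0146) and PTGS2 (mean 5405 at 5 days, 4139 at 1 day, log2 change 0.32, adjusted p = 0.028), and both calls were lost without S1, that of PTGS2 also without S2 and without S4 (adjusted p up to 0.0541 and 0.138). The 15.4% of this list called was below the 17.7% of all genes tested. CXCL8, the neutrophil chemokine, had 287, 17.3, 52.4 and 7.80 at 5 days of smoke, against 171, 7.39, 29.6 and 6.75 at 1 day (log2 change 0.71, adjusted p = 0.0582) and did not pass. Of 14 glucocorticoid response genes 3 rose and 2 fell (35.7%, against 17.7% of all genes tested). Among those that rose were ERRFI1, also counted above with the EGF receptor genes, and ZBTB16 (mean 152 at 5 days, 104 at 1 day, log2 change 0.55, adjusted p = 0.0197). KLF9 (mean 665 at 5 days, 832 at 1 day, log2 change -0.34, adjusted p = 0.0146) and PER1 (mean 1094 at 5 days, 1311 at 1 day, log2 change -0.26, adjusted p = 0.0144) fell. The calls of ZBTB16, KLF9 and PER1 were lost without S4 (adjusted p up to 0.0978, 0.0889 and 0.0812). Of 19 p53 targets 1 rose, the repair gene XPC (mean 1076 at 5 days, 901 at 1 day, log2 change 0.26, adjusted p = 0.022, lost without S3 and without S4 at up to 0.12), and 0 fell. That was 5.26% of the list, below the 17.7% of all genes tested. CDKN1A, the p21 cell cycle inhibitor, had mean 1415 at 5 days, 1696 at 1 day (log2 change -0.24, adjusted p = 0.0854). Of 2 tested genes of rare epithelial cells 1 fell, AVIL (mean 72.6 at 5 days, 116 at 1 day, log2 change -0.70, adjusted p = 0.00973, lost without S4 at 0.0567).

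Of 27 nuclear speckle and SR splicing genes 4 rose and 9 fell (48.1%, against 17.7% of all genes tested). SRSF6, a splicing factor, had 1258, 1155, 1398 and 1388 at 5 days of smoke, against 2542, 2263, 3101 and 2673 at 1 day, SRRM2, a scaffold of nuclear speckles, had 5344, 4268, 4989.6 and 5236 at 5 days of smoke, against 9202, 9133, 9469.8 and 9001 at 1 day, and SRSF5 fell too (mean 1334 at 5 days, 2469.8 at 1 day, log2 change -0.90, adjusted p = 8.20e-05). SRSF6 had a log2 change of -1.02 ± 0.06 (SE, adjusted p = 1.29e-05). SRRM2 had a log2 change of -0.90 ± 0.06 (SE, adjusted p = 4.33e-05). CLK1, the kinase that phosphorylates SR proteins, rose, with 501, 550.3, 651 and 551 at 5 days of smoke, against 270.2, 260.2, 309 and 309 at 1 day. CLK1 had a log2 change of 0.97 ± 0.08 (SE, adjusted p = 9.73e-05). None of these 4 overlapped between the groups, and of all genes tested 8.95% did not. Of 33 cytosolic ribosomal protein genes 20 rose and 0 fell (60.6%, against 17.7% of all genes tested), and 12 rose without S2, 4 without S3 and 4 without S4. All 33 had a log2 change above 0, with a small median of 0.20 in smoke and 0.45 (0.19 without S1) in air. RPS20 had mean 9095 at 5 days, 7239 at 1 day (log2 change 0.33, adjusted p = 0.00306) and RPL27 mean 3065 at 5 days, 2441 at 1 day (log2 change 0.33, adjusted p = 0.00419). All 13 mitochondrially encoded genes fell in smoke, by a median of -0.46, against -0.54 (-0.89 without S1) in air. ND5, a subunit of respiratory complex I, had 34047, 31764, 30985 and 30833 at 5 days of smoke, against 47807, 47248, 50032 and 52687 at 1 day. ND5 had a log2 change of -0.63 ± 0.07 (SE, adjusted p = 4.09e-04). These transcripts share 1 genome and carry the fall in the mitochondrial share given above, so they are not separate evidence.

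The test of whether smoke and air changed unequally passed for 5 of 13200 genes (0.0379%), with 1 above 0 (0.00758%) and 4 below (0.0303%). RGS2, a brake on G protein signalling, had 257, 201, 288 and 273 at 5 days of smoke, against 147, 99.4, 99.8 and 116 at 1 day, and 170.0, 105, 169.6 and 172 at 5 days of air, against 203, 171, 178 and 199 at 1 day. It rose in all 4 animals in smoke and was lower in all 4 in air (difference in log2 change 1.44 ± 0.19 (SE), adjusted p = 0.0217). KLF6, given above, was the reverse. RSRP1, an arginine- and serine-rich protein, had 121, 141, 152 and 218 at 5 days of smoke, against 147, 97.2, 134 and 144 at 1 day (log2 change 0.26, adjusted p = 0.265), but 674, 573, 482 and 719 at 5 days of air, against 163, 129, 159 and 242 at 1 day (difference in log2 change -1.58 ± 0.22 (SE), adjusted p = 0.0267). AKAP17A, a splicing-associated anchoring protein, had 303, 315, 344 and 329.7 at 5 days of smoke, against 318, 399, 453 and 437 at 1 day (log2 change -0.30, adjusted p = 0.0388, lost without S2, without S3 and without S4 at up to 0.169), and 317, 431, 441 and 396 at 5 days of air, against 198, 225, 255 and 246 at 1 day (difference in log2 change -1.07 ± 0.13 (SE), adjusted p = 0.0127). EPHA2, a receptor tyrosine kinase for ephrins, had 2346, 2655, 2549 and 2421 at 5 days of smoke, against 2705, 2659, 2928 and 2619 at 1 day (log2 change -0.13, adjusted p = 0.143), and 3247, 3738, 3269 and 3302 at 5 days of air, against 2237, 2218, 2266 and 2105 at 1 day (difference in log2 change -0.75 ± 0.10 (SE), adjusted p = 0.0217). With 1 animal left out of all 4 groups, all 5 passed without S1. KLF6 alone passed without S3 (adjusted p = 0.0139), and 0 passed without S2 or without S4, where the p of KLF6 was 0.118 and 0.154 and its difference -1.45 and -1.51. In RSRP1 and EPHA2 the smoke change did not pass while all 4 air values at 5 days exceeded all 4 at 1 day.

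The same contrast is also the change of the smoke effect between both times, and at 1 day KLF6 was higher in smoke than in air in all 4 animals and at 5 days the groups overlapped. Of the 6 genes with the smallest p above 0 and the 6 below 0, the others did not pass with all libraries. They were NCAPG (1.41, adjusted p = 0.0636), WDR92 (0.57, adjusted p = 0.273), CENPN (1.13, adjusted p = 0.296), NUP37 (0.63, adjusted p = 0.296) and MKI67 above 0, and GPRC5A (-0.83, adjusted p = 0.117) and SLC2A3 below 0. A second entry of GPRC5A had -0.775 (adjusted p = 0.49, and 0.00209 with the 5-day S1 air library left out). Values of GPRC5A given here are of the entry with the smaller p. With the 5-day S1 air library left out, 103 genes passed, 33 above 0 (0.25%) and 70 below (0.53%), with MKI67, NCAPG (0.00909), WDR92 (0.0205), NUP37 (0.0235), GPRC5A (0.00209) and SLC2A3 among them and CENPN (0.0531) not. In smoke WDR92 (log2 change 0.35, adjusted p = 0.0183) and NUP37 (log2 change 0.51, adjusted p = 0.00858) rose and GPRC5A fell (log2 change -0.46, adjusted p = 0.00238), and the call of WDR92 was lost without S1, without S3 and without S4 (adjusted p up to 0.0991) and that of NUP37 without S3 (adjusted p = 0.0552).

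**Figure D5:**
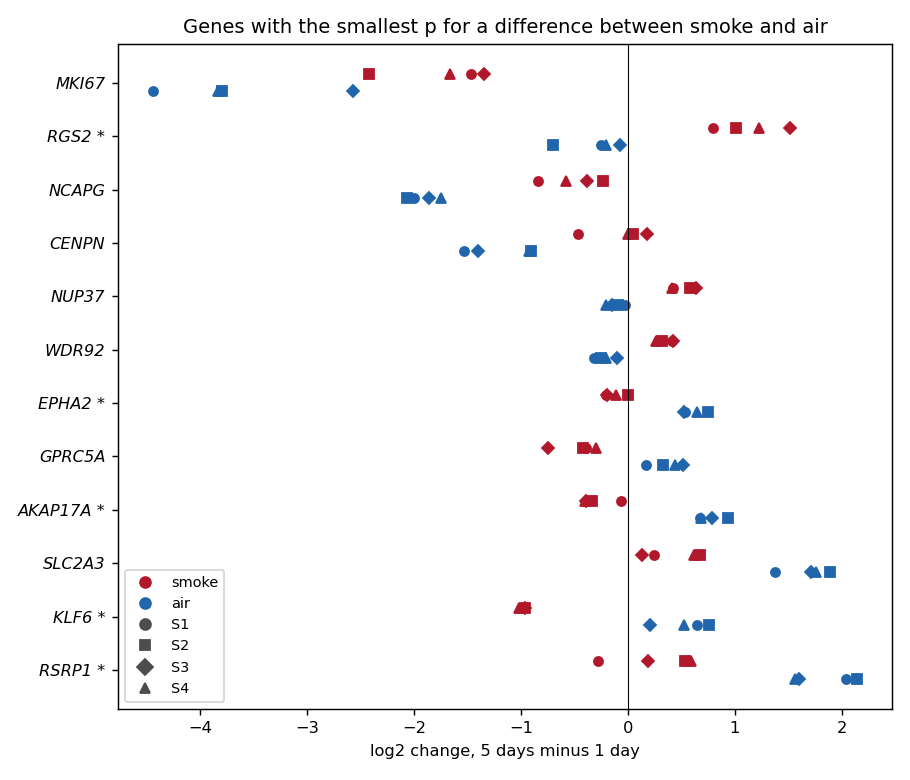
Per-animal log2 changes (5 days minus 1 day, x axis) in smoke (red, upper) and in filtered air (blue, lower) for the 12 genes with the smallest p for a difference between smoke and air, 6 in each direction. An asterisk marks an adjusted p under 0.05. KLF6 has all smoke points below 0 and all air points above 0, and RGS2 the reverse.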

How the data were processed

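Libraries were made from poly-A RNA (0.5 µg, RIN of at least 7, per the labels), and reads passed through FastQC, Trim Galore and then Bowtie2 with RSEM, per the submitters' processing notes, which give no versions. Build, annotation and normalizing tool: not given in the sources used here. The deposited signal is a normalized count per gene, not a whole number, scaled so that the median ratio to the geometric mean was the same in every library. Values were therefore not tested as counts. Depth was approximated from the step between low values.

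Genes reaching 10 in 4 or more of the 8 libraries were analysed as log2(value + 1). The model was limma 3.58.1 (R 4.3.3) with a mean trend in the moderated variance, animal as an additive block, two-sided tests, and Benjamini-Hochberg adjustment over all genes tested at 0.05. The same fit was made for the 8 air libraries, and the difference between both changes was tested on 16. Adjusted p-values of genes are from limma, and those of the 5 library measures from exact sign flip tests. Fold changes on the log2(value + 1) scale understate those of low genes. The labels give each animal's number to its libraries, and deviations from group means correlated at 0.686 to 0.794 within an animal and at -0.461 to -0.0454 between animals. Deviations of the 4 animals of a group sum to 0, which by itself pushes the values between animals below 0. The recovery libraries entered only the fits to all 24 and the median correlations between libraries.

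Named genes are the 15 largest changes each way among genes with a symbol, a mean of at least 50, an adjusted p under 0.05 and 1 direction in all 4 animals, the 4 members with the smallest p of each of 39 lists, the 6 smallest p each way for the difference, and a few always given; 2 of these are not reported here. The members and lists were chosen with earlier results of these data known. Symbols came from the table, and that of MXRA5 from the reference gene table.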

Additional observations from a re-analysis of the deposited data

Results flagged for a closer look

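A library far from the other 3 of its group was found for 32 of 334 gene or library measures checked (Dixon's criterion at 95%). Its rate of about 1 in 20 by chance holds for independent, normally distributed values. The values checked were counts not put on a log scale, from both times of the same animals. That rate therefore gives no measure of excess here. Normalized counts of those libraries stand in parentheses. At 5 days of smoke, the S1 library for ATP12A (31870), CXCL8 (286.5), IGSF3 (109.8), MYC (148.4), OSGIN1 (346) and PIGR (47190) lay above the other 3 animals. At 5 days of smoke, the S2 library for ACP3 (232.8), ITGA6 (1696) and NR1D2 (310) lay above and for CCNA2 (15.96), CYP1B1 (147.5) and EGR1 (329.3) lay below the other 3 animals. At 5 days of smoke, the S3 library for MAMU-DRA (1037) and TFF3 (199.7) lay above the other 3 animals. At 5 days of smoke, the S4 library for FN1 (4611) lay above the other 3 animals. At 1 day of smoke, the S1 library for ATP12A (24280), CXCL8 (170.7), NOTCH1 (839.9), PIGR (40470), SLC5A8 (2301), XPC (1034) and ZBTB16 (125.8) lay above the other 3 animals. At 1 day of smoke, the S2 library for ADM (223), HSD17B7 (717), LDHA (21440), MX2 (433.1) and SCD (8395) lay above the other 3 animals. At 1 day of smoke, the S3 library for CHORDC1 (328.1) and MAMU-DRA (305.5) lay above the other 3 animals. At 1 day of smoke, the S4 library for CYP26B1 (17.88) and FN1 (5542) lay above the other 3 animals. The normalized total of S2 at 1 day of smoke, 13.48 M, was above those of the other 3.

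The change over time differed between smoke and air, in the test of the difference itself, for AKAP17A (-1.07 on the log2 scale, smoke change minus air change), RSRP1 (-1.58 on the log2 scale, smoke change minus air change), KLF6 (-1.52 on the log2 scale, smoke change minus air change), EPHA2 (-0.75 on the log2 scale, smoke change minus air change) and RGS2 (1.44 on the log2 scale, smoke change minus air change). Counts and values by animal are given with those genes above.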

How the results depend on the processing

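The 4 animals gave same-numbered pairs, so the comparison was fitted with animal as a replicate block, and without that block 25 genes were called in smoke (5 higher, 20 lower) in place of 2341, 0 in air and 0 in the difference. With all 24 libraries in 1 fit, the block gave 502 in smoke (497 of them among the 2341) and 2784 in air, and no block gave 40 in smoke, 617 in air and 2 in the difference. Without the mean trend of the variance 481 were called in smoke, and against a fold change of 1.2, 198 in smoke and 1 in the difference. Library quality weights gave 3420 in air and 221 in the difference, and scaling to library totals 3 in the difference, where it shifted the median over all genes to 0.17 on the log2 scale. The cause of these shifts was not tested. The count in smoke stayed within 1.5 times of 2341 under pseudocounts of 0.5 and 5, library total and upper quartile scaling (2278, 1005 higher and 1273 lower), both other filters, robust moderation, quality weights and an adjusted p of 0.1. With 1 animal left out, it ranged from 967 to 2249 in smoke, from 0 to 3102 in air and from 0 to 64 in the difference. Leaving out only the 5-day air library of S1 gave 3119 in air and 103 in the difference. Of 149 called entries of genes named in the text, those of SLC30A1 not included, 149 kept their sign under every alternative. The log2 change is the same without the block, with all 24 libraries, without the mean trend and with robust moderation. Its sign could not turn there. Calls held for 12 without the block, 66 with the block and all 24 libraries, 70 without the mean trend and 65 against a fold change of 1.2. In every fit with 1 animal left out that held them, 112 stayed called. CYP26B1 counts among these but was called in 3 of 4 fits, being below the filter without S4. Of 546 list medians recomputed, 536 moved by less than 1 SD between animals. Depth was only approximate, so counting error could not be computed, and low genes such as CYP26B1 are the least precise.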

Other observations

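The genes in this part were chosen after their values were seen, and no list was tested. The actins ACTG1 and ACTB and 3 actin-binding proteins fell. ACTG1, a cytoplasmic actin, had 17302, 19859, 17409.5 and 16877 at 5 days of smoke, against 33456, 41343, 37662 and 39848 at 1 day, and ACTB had 11528, 15559.7, 14592 and 11953 at 5 days of smoke, against 20279.7, 25877, 26716 and 22847 at 1 day. ACTG1 had a log2 change of -1.09 ± 0.07 (SE, adjusted p = 1.29e-05). ACTB had a log2 change of -0.84 ± 0.06 (SE, adjusted p = 4.33e-05). In air the log2 changes were 0.00, -0.40, -0.36 and -0.51 for ACTG1 and 0.22, -0.57, -0.45 and -0.69 for ACTB in S1 to S4. The crosslinker FLNA (3506 ± 485 at 5 days and 6579.6 ± 505 at 1 day, SD, n = 4, log2 change -0.92, adjusted p = 6.32e-05), the motor MYH9 (6642 ± 959.8 at 5 days and 10347 ± 812 at 1 day, log2 change -0.65, adjusted p = 3.64e-04) and the adhesion protein VCL (1716 ± 272 at 5 days and 2492 ± 188 at 1 day, log2 change -0.55, adjusted p = 4.76e-04) fell as well. None of the 5 overlapped between the groups. Of all genes tested 4.45% did not overlap and were lower, and of genes called lower 35.3% did not overlap. The 5 were picked by their values, so their lack of overlap is not a separate result.

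Several antigen presentation genes rose. CD74, the invariant chain of MHC class II, had 477, 156, 1075 and 86.4 at 5 days of smoke, against 240.3, 79.4, 370.0 and 37.1 at 1 day, and in air 709, 124, 839.6 and 49.8 at 5 days of air, against 224, 41.6, 356 and 29.0 at 1 day. CD74 had a log2 change of 1.17 ± 0.12 (SE, adjusted p = 2.65e-04). The class II chains MAMU-DRA (312 ± 485 at 5 days and 103 ± 135 at 1 day, log2 change 1.04, adjusted p = 0.0127) and MAMU-DRB1 (114 ± 121 at 5 days and 44.8 ± 27.6 at 1 day, log2 change 0.92, adjusted p = 0.0254) rose, and both calls were lost without S3 (adjusted p of 0.105 and 0.173). B2M, the light chain of class I, rose by a smaller amount (15732 ± 1609 at 5 days and 11895 ± 675 at 1 day, log2 change 0.40, adjusted p = 0.00273). The summed leukocyte markers were 2670 to 4099 at 5 days and 2690 to 3610 at 1 day, and PTPRC was at or near 0. Their part in these values was not tested.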
